A study of Saccharomyces cerevisiae with 4 samples.

Results

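The genes described here encode the chaperones and the ATP-dependent protease of the yeast mitochondrial matrix: SSC1 (YJR045C), MGE1 (YOR232W), MDJ1 (YFL016C), ECM10 (YEL030W), SSQ1 (YLR369W), JAC1 (YGL018C), HSP60 (YLR259C), HSP10 (YOR020C) and PIM1 (YBL022C). They were found by matching the gene names that the scanner files give to each spot against these 9 names, and all 9 were found among the 6336 genes of the array, each as 1 probe printed as 2 spots. The study compared the RNA of 4 Saccharomyces cerevisiae strains on DNA microarrays with 2 dyes: the cDNA of one strain is labelled with Alexa555 and that of the other with Alexa647, both bind to the same array, and each spot gives the ratio of the strains. S288C (mating type alpha, SUC2, with the alleles bio1, bio6, flo1, flo8-1, gal2, hap1, ho, mal2 and mel) is the parental strain. TTY23 was selected from S288C by laboratory evolution at elevated temperature, AT22 from S288C at low pH with acetic acid, and TAT12 from TTY23 at low pH with acetic acid, so TAT12 carries the history of TTY23, and each evolved strain is a single selected strain. All cultures were grown without these stresses, at 30 °C in defined medium with 2% glucose at pH 5.0 and 250 rpm by the sample labels (the study's methods give other values for pH and shaking), and were sampled in the middle of exponential growth. AT22 was compared with S288C, and TAT12 with S288C, with TTY23 and with AT22, each time on 2 arrays with the dyes exchanged (a dye swap). A dye swap was counted as 1 replicate, so each comparison has n = 1, and the difference between its 2 arrays measures technical spread and dye effects, not the spread between cultures. TTY23 relative to S288C was obtained only indirectly, by subtracting the TAT12 over TTY23 log2 ratio from that of TAT12 over S288C.

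Most mitochondrial proteins are made in the cytosol and enter the matrix unfolded. The matrix Hsp70 Ssc1 pulls them in and helps them fold, in cycles driven by its J-protein Mdj1 and its nucleotide exchange factor Mge1, the chaperonin Hsp60 with its lid Hsp10 encloses and folds a further set of clients, and the Lon-type protease Pim1 degrades what stays misfolded. A second, specialised Hsp70, Ssq1, works with the J-protein Jac1 in handing over iron-sulfur clusters, and Ecm10 is a close relative of Ssc1. Several of these genes are known in yeast as targets of the heat shock factor Hsf1, and SSC1, HSP60, HSP10, MGE1 and JAC1 are essential for growth.

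The signal set what could be read for each gene. A reading counted as above background when its background-subtracted intensity exceeded the 95th percentile of the 320 empty spots of that array and dye. ECM10, HSP60, HSP10, MDJ1 and SSQ1 were above background in all 16 readings (8 arrays, each in both dyes). MGE1 and JAC1 were above background in 15 of 16 readings and missed only in Alexa647 on the first array of TAT12 and S288C. SSC1 and PIM1 were each above background in only 4 of 16 readings, and neither passed in both dyes of both arrays in any comparison. Their log2 ratios therefore rest mostly on spots at the level of the empty spots. The median signal over local background was 2.10 in Alexa555 and 1.35 in Alexa647 for SSC1, and 2.27 and 1.21 for PIM1.

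**Figure D1:**
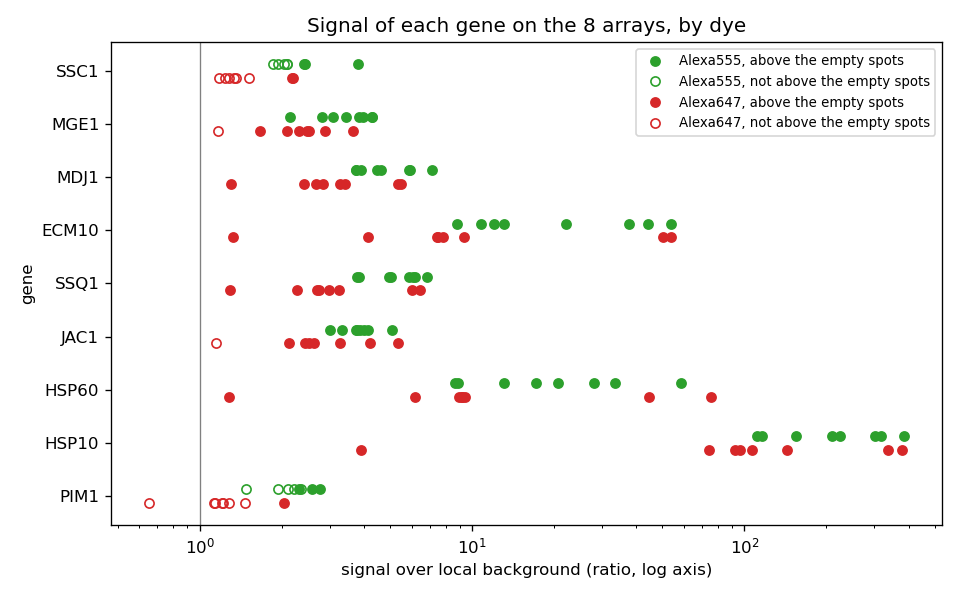
Signal over local background (ratio, log axis) of each of the 9 genes on the 8 arrays, Alexa555 in green and Alexa647 in red. Filled points lie above the 95th percentile of the empty spots and open points do not. SSC1 and PIM1 have 4 filled points of 16 each, and the lowest Alexa647 point of HSP10, at 3.90, belongs to the first array of TAT12 and S288C.

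Some of the 8 arrays stood apart. On the first array of TAT12 and S288C the median local background in Alexa647, the dye of TAT12 there, was 336, against 48.8 to 136 on the other 7 arrays, and the 9 genes had only 1.13 to 3.90 times the local background in that dye. HSP10, for example, had 3.90 there in Alexa647 (TAT12) and 111 in Alexa555 (S288C). The second array of AT22 and S288C correlated at r = −0.59 with the second array of TAT12 and S288C over all genes once both were turned to evolved strain over S288C, whereas the first arrays of the same pairs correlated at r = 0.18. The direction of that array is therefore not settled. The mean of each of the 9 genes in AT22 over S288C is given as labelled and with the sign of that array turned. Between the 2 arrays of a swap, the log2 ratios of all genes correlated at r = −0.030 (AT22 over S288C), 0.092 (TAT12 over S288C), 0.13 (TAT12 over TTY23) and −0.17 (TAT12 over AT22).

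Few of the 9 genes left the range of other genes of like intensity. A gene was called when its log2 ratio lay more than 2 SD away from the average of its 100 neighbours in mean intensity (absolute z-score above 2, the threshold of the study's methods), and no p-value was drawn from this score. PIM1, lower in AT22 than in S288C, was the single call in that comparison, 1 of 9 genes beside 4.62% of all genes called (4.09% of all genes called lower). It was also the single call with the second array turned, where 4.02% of all genes were called. Both versions share the first array, where the background-subtracted AT22 value of PIM1 was below 0. On the second array alone its z-score was −1.10, so the repeat of the call is no separate evidence. JAC1, lower in TAT12 than in S288C, was the single call there, 1 of 9 genes beside 5.05% of all genes (1.94% called lower). None of the 9 genes was called in TAT12 over TTY23, where 5.51% of all genes were, in TAT12 over AT22 (4.28%) or in the indirect TTY23 over S288C (5.16%). Set against these shares, counts of 0 or 1 among 9 genes say nothing about the group as a whole. In limma's moderated test over the 4 dye-swap means (1 residual degree of freedom), 0 of the 9 genes passed an adjusted p of 0.05 and 0 had an unadjusted p under 0.05 in each direct comparison. Over all 6336 genes this test called 0% in each of the 4 comparisons, with 91, 253, 150 and 94 genes at an unadjusted p under 0.05 in AT22 over S288C, TAT12 over S288C, TAT12 over TTY23 and TAT12 over AT22. These unadjusted counts depended on the array with unsettled direction: with it turned they were 1230, 828, 465 and 664 genes, among them 1, 3, 1 and 1 of the 9 genes. In AT22 over S288C the gene concerned was ECM10 (unadjusted p = 0.00394 in limma). In TAT12 over S288C the genes were ECM10, HSP60 and HSP10 (0.00493, 0.017 and 0.0287 in limma). HSP10 was the gene in TAT12 over TTY23 and JAC1 that in TAT12 over AT22 (0.0422 in limma). None of them passed after adjustment. TTY23 entered only 1 swap, so the residual degree of freedom came from the swaps among S288C, AT22 and TAT12. The limma p-values of TAT12 over TTY23 therefore do not measure the error of that comparison.

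**Figure D2:**
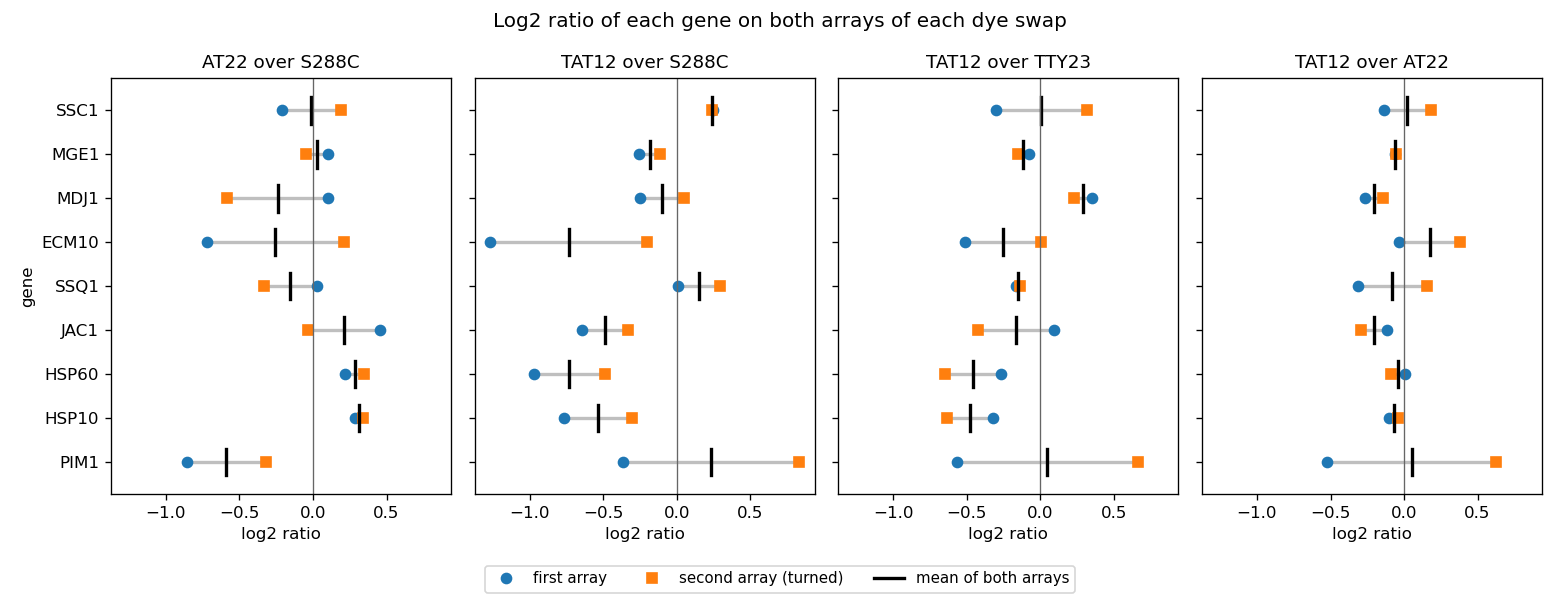
Log2 ratio of each gene on the first array (circles) and on the second array turned to the same direction (squares) of the 4 dye swaps, with the mean as a black line. HSP60 and HSP10 lie to the right of 0 on both arrays of AT22 over S288C and to the left of 0 on both arrays of TAT12 over S288C and of TAT12 over TTY23, and the 2 arrays of PIM1 lie on opposite sides of 0 in the 3 comparisons with TAT12.

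The medians of the 9 genes lay a little below those of all genes, but in AT22 over S288C not once SSC1 and PIM1 were left out. Their median log2 ratio was −0.010 in AT22 over S288C (−0.027 with the second array turned), −0.18 in TAT12 over S288C, −0.15 in TAT12 over TTY23 and −0.059 in TAT12 over AT22. The medians of all genes were 0.025 (0.0026 with the second array turned), 0.020, 0.0080 and −0.010. Over the 5 genes above background in every reading of TAT12 over S288C (MDJ1, ECM10, SSQ1, HSP60 and HSP10) the median there was −0.54. In the other 3 comparisons 7 genes, all but SSC1 and PIM1, were above background in every reading. Their medians were 0.027 in AT22 over S288C with the dyes as labelled, −0.17 in TAT12 over TTY23 and −0.072 in TAT12 over AT22. The medians of all genes were not limited to genes above background. In each of the 3 comparisons with TAT12, 6 of the 9 genes had a log2 ratio below 0, and all 3 share the same strain as numerator. SSC1 and PIM1, mostly at the level of the empty spots, were above 0 in each. With the medians of all genes close to 0, a count of 6 of 9 is no result about the group. Indirectly, TTY23 over S288C had a median of −0.069 over the 9 genes and 0.018 over all genes, and its sign was not stable, with −0.45 over the first arrays and 0.094 over the second. With the dyes as labelled, both arrays of AT22 over S288C had the same sign for 3 of 9 genes (52.9% of all genes). The same held for 7 of 9 in TAT12 over S288C (50.2%), 5 of 9 in TAT12 over TTY23 (50%) and 4 of 9 in TAT12 over AT22 (42.1%).

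**Figure D3:**
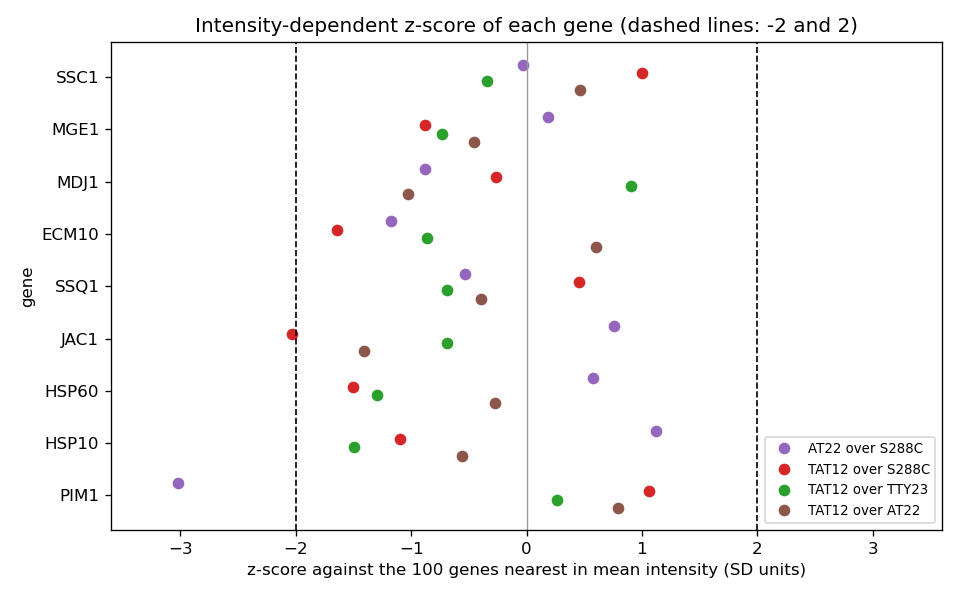
Z-score of each gene against the 100 genes nearest in mean intensity (SD units) in the 4 dye-swap comparisons, with dashed lines at −2 and 2. PIM1 in AT22 over S288C (−3.02) and JAC1 in TAT12 over S288C (−2.03) are the points beyond a dashed line.

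SSC1, the main matrix Hsp70, had log2 ratios of −0.21 on the first array and 0.19 on the second (mean −0.010, z-score −0.0271) in AT22 over S288C, and a mean of −0.20 (z-score −1.59) with the second array turned. Both arrays of TAT12 over S288C gave SSC1 the same value, 0.24 and 0.24 (mean 0.24, z-score 0.998). Against TTY23, TAT12 had −0.30 and 0.32 (mean 0.0065, z-score −0.346), and against AT22 −0.14 and 0.18 (mean 0.022, z-score 0.461). The arrays of 3 of the 4 swaps thus lay on opposite sides of 0, and SSC1 was called in none of them. Indirectly, TTY23 over S288C was 0.24. With most readings at the level of the empty spots, neither a change nor its absence was detectable for SSC1.

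MGE1, the nucleotide exchange factor of Ssc1, stayed close to 0. Its log2 ratios were 0.10 and −0.048 (mean 0.027, z-score 0.183) in AT22 over S288C, with 0.075 when the second array was turned. TAT12 had −0.26 and −0.11 (mean −0.18, z-score −0.880) relative to S288C, −0.080 and −0.15 (mean −0.12, z-score −0.732) relative to TTY23 and −0.062 and −0.056 (mean −0.059, z-score −0.455) relative to AT22. In all 3 comparisons with TAT12 both arrays lay below 0, by at most 0.26, and the z-scores lay between −0.880 and −0.455. With median centring in place of loess the mean relative to AT22 was 0.0017. The indirect value of TTY23 over S288C was −0.069.

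MDJ1, the J-protein that stimulates the ATPase of Ssc1, depended most on the array with unsettled direction. In AT22 over S288C it had 0.10 on the first array and −0.58 on the second (mean −0.24, z-score −0.879), and its mean became 0.34 (z-score 1.08) with the second array turned, so no direction can be given. Relative to S288C, TAT12 had −0.25 and 0.047 (mean −0.10, z-score −0.267) for MDJ1. Relative to TTY23, its own progenitor, TAT12 had 0.35 and 0.23 (mean 0.29, z-score 0.909), the highest mean of the 9 genes in that comparison, and 92.5% of all genes lay lower. Relative to AT22 both arrays lay below 0, with −0.27 and −0.14 (mean −0.20, z-score −1.03). The indirect TTY23 over S288C was −0.39 (z-score −1.40), −0.60 over the first arrays and −0.18 over the second. No call was made for MDJ1 in any of these comparisons.

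ECM10, the paralogue of SSC1, had one of the largest differences in size but also one of the widest gaps between arrays. Its log2 ratio in TAT12 over S288C was −1.27 on the first array and −0.20 on the second (mean −0.73, z-score −1.64), and 1.23% of all genes had a lower mean. The first value comes from the array with the high Alexa647 background, where ECM10 had 1.33 times the local background in TAT12 and 12.1 times in S288C, and without background correction the mean over both arrays was −0.46. On the second array alone the value was −0.20. In AT22 over S288C the arrays disagreed in sign, at −0.72 and 0.21 (mean −0.26, z-score −1.18), with −0.47 when the second array was turned. TAT12 had −0.51 and 0.0068 (mean −0.25, z-score −0.862) relative to TTY23 and −0.032 and 0.38 (mean 0.18, z-score 0.598) relative to AT22, and neither comparison kept one sign clear of 0 on both arrays. Expressed as Alexa647 over Alexa555 whatever the strain, the log2 ratio of ECM10 was below 0 on 7 of 8 arrays, from −1.27 to 0.20. The indirect TTY23 over S288C was −0.48 (−0.76 and −0.21). The moderated fit over the loop of swaps gave −0.52 ± 0.21 (SE) for TAT12 over S288C, the lowest unadjusted p of the 9 genes in that comparison at 0.0509 (limma adjusted p = 1). Because the probe sequences were not used here, RNA of SSC1 reaching the ECM10 spots, or the reverse, cannot be told apart from each gene's own RNA.

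The Hsp70 system of iron-sulfur cluster transfer gave the second call. JAC1, the J-protein partner of Ssq1, had log2 ratios of −0.64 on the first array and −0.33 on the second (mean −0.49, z-score −2.03) in TAT12 over S288C, and 4.54% of all genes lay lower. All 4 spots of JAC1 were below 0 there. The call lay at the edge of the threshold (mean −0.19 without background correction), and JAC1 was not above background in Alexa647 on the first array, where TAT12 carried that dye. The second array alone gave −0.33 (z-score −0.819), and the z-score also fell short of 2 without background correction (−1.17), with median centring in place of loess (−1.93), with 400 neighbours (−1.87), with least squares over the loop (−1.81) and in the authors' deposited z-scores (−1.80).

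JAC1 was also below 0 on both arrays of TAT12 over AT22, at −0.11 and −0.29 (mean −0.20, z-score −1.41). Relative to TTY23 its values were 0.091 and −0.42 (mean −0.17, z-score −0.686), on opposite sides of 0. In AT22 over S288C it had 0.45 and −0.033 (mean 0.21, z-score 0.755), and 0.24 with the second array turned, so the mean of AT22 was above that of S288C either way, without a call. The indirect TTY23 over S288C was −0.32 (z-score −1.27). SSQ1 encodes the Hsp70 that Jac1 serves. Its log2 ratios in TAT12 over S288C were 0.011 and 0.29 (mean 0.15, z-score 0.453), above 0 on both arrays while JAC1 was below 0 on both. Relative to TTY23 they were −0.16 and −0.14 (mean −0.15, z-score −0.689) and relative to AT22 −0.31 and 0.15 (mean −0.080, z-score −0.395). In AT22 over S288C SSQ1 had 0.027 and −0.33 (mean −0.15, z-score −0.531), and the mean turned to 0.18 with the second array turned. SSQ1 was called in no comparison, and the indirect TTY23 over S288C was 0.30. The difference between JAC1 and SSQ1 was not tested.

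The chaperonin genes HSP60 and HSP10, whose products form the folding chamber and its lid, had similar log2 ratios in every swap, and neither gene was called in any. HSP60 had −0.97 on the first array and −0.49 on the second (mean −0.73, z-score −1.50) in TAT12 over S288C, and HSP10 had −0.77 and −0.30 (mean −0.54, z-score −1.09). In TAT12 over TTY23 the values were −0.27 and −0.65 (mean −0.46, z-score −1.30) for HSP60 and −0.32 and −0.63 (mean −0.48, z-score −1.49) for HSP10. These were the 2 lowest means of the 9 genes relative to TTY23, with 1.96% and 1.71% of all genes below them. All 4 spots of each gene were below 0 in both comparisons. The z-scores did not reach the threshold, and the SD of the 100 neighbours of HSP10 in TAT12 over S288C was 0.50, against 0.19 for those of PIM1. With median centring in place of loess the mean of HSP10 was −1.26 in TAT12 over S288C and −0.74 in TAT12 over TTY23, and least squares over the loop gave −0.28 in TAT12 over S288C (−0.41 for HSP60). That loop value was −0.39 (−0.52 for HSP60) with the second AT22/S288C array turned. In the limma fit HSP60 had −0.46 and HSP10 −0.48 in TAT12 over TTY23. These are the swap means themselves, since TTY23 entered only 1 swap, and the fit holds no error for that comparison.

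On the first array of TAT12 and S288C, HSP60 had 1.29 times the local background in Alexa647 (TAT12) and 8.86 times in Alexa555 (S288C). Without that array the log2 ratios of TAT12 over S288C were −0.49 for HSP60 and −0.30 for HSP10. Relative to AT22, TAT12 lay near 0, with 0.0067 and −0.088 (mean −0.041, z-score −0.274) for HSP60 and −0.11 and −0.038 (mean −0.072, z-score −0.563) for HSP10, while median centring gave 0.059 and −0.25 and least squares over the loop −0.36 and −0.33. These loop values were −0.25 and −0.22 with the second AT22/S288C array turned. AT22 over S288C gave HSP60 0.22 and 0.35 (mean 0.28, z-score 0.575) and HSP10 0.29 and 0.34 (mean 0.31, z-score 1.13), above 0 on all 4 spots of each gene with the dyes as labelled. With the second array turned the means were −0.063 and −0.027, so their direction in AT22 is not settled. The indirect TTY23 over S288C was −0.27 for HSP60 and −0.059 for HSP10, but 0.16 and 0.33 over the second arrays alone. Across the 8 arrays the log2 ratios of HSP60 and HSP10 differed by 0.0066 to 0.20 (median 0.060) and had the same sign on 7 arrays. This likeness is a description over arrays that share strains, dyes and the loess fit.

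PIM1, the Lon-type protease of the matrix, had the largest z-score of the 9 genes. Its log2 ratios in AT22 over S288C were −0.86 on the first array and −0.32 on the second (mean −0.59, z-score −3.02), with all 4 spots below 0, and the mean was −0.27 (z-score −2.72) with the second array turned. With the dyes as labelled, AT22 was above background on neither array and S288C only on the second. With that array turned, the reading above background would belong to AT22. No fold is given, since the floor set by the dimmest measured genes was above the level in S288C as labelled. On the first array the raw Alexa647 intensity of PIM1 (AT22) was 132 and its signal was 0.651 times the local background, so the background-subtracted value was below 0 (−74.6). Without background correction the z-score was −1.08, and on the second array alone −1.10. The authors' deposited z-scores had no value for PIM1 in any of the 4 comparisons.

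In the comparisons with TAT12 the arrays of PIM1 opposed each other. TAT12 had −0.37 and 0.83 (mean 0.23, z-score 1.06) relative to S288C, −0.57 and 0.66 (mean 0.047, z-score 0.261) relative to TTY23 and −0.53 and 0.63 (mean 0.051, z-score 0.794) relative to AT22. Each of these swaps had the first array below 0 and the second above 0. Read as Alexa647 over Alexa555 whatever the strain, PIM1 was below 0 on 7 of 8 arrays, with values from −0.86 to −0.37, and above 0 (0.32) only on the second array of AT22 and S288C. That array was also one of 2 on which the median local background was higher in Alexa555 than in Alexa647, at 82.5 and 48.8 there and 59.4 and 55.4 on the second array of TAT12 and TTY23. The part of the dyes in the PIM1 call was not tested further. The indirect TTY23 over S288C was 0.18 (z-score 0.756).

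Because S288C, AT22 and TAT12 were compared in all 3 pairs, TAT12 over S288C can be read directly and through AT22, as the sum of AT22 over S288C and TAT12 over AT22. For HSP60 the direct value was −0.73 and the value through AT22 0.24, or −0.10 with the second AT22/S288C array turned. HSP10 had −0.54 directly and 0.24 through AT22 (−0.099 turned). The paths therefore opposed each other in sign for both chaperonin genes as labelled, and had the same sign but different sizes when turned. JAC1 was −0.49 directly and 0.0069 through AT22 (0.040 turned), so the second path lay near 0. For PIM1 the direct value was 0.23 and the other path gave −0.54 (−0.22 turned). ECM10 was below 0 on every path, with −0.73 directly, −0.081 through AT22 and −0.29 turned. The paths had the same sign for 4 of the 9 genes as labelled and for 4 when turned. Their median absolute gap was 0.49 over the 9 genes and 0.28 over all genes as labelled, and 0.44 and 0.19 when turned.

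**Figure D4:**
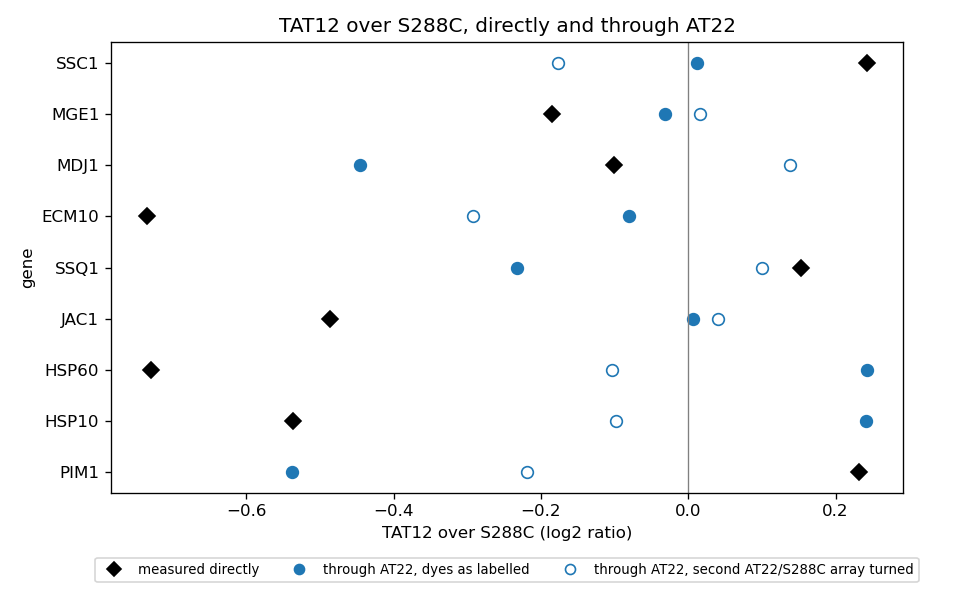
Log2 ratio of TAT12 over S288C for each gene, measured directly (black diamonds), through AT22 with the dyes as labelled (filled circles) and through AT22 with the second AT22/S288C array turned (open circles). The diamonds of HSP60 and HSP10 lie at −0.73 and −0.54 and their filled circles at 0.24.

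Other mitochondrial genes were read in 3 lists, chosen by function, all of whose genes were found on the array. Of 14 other folding and proteolysis genes, 1 was called lower in AT22 over S288C, 1 higher in TAT12 over S288C, 1 higher in TAT12 over TTY23 and 2 higher in TAT12 over AT22. The list medians were −0.031 (−0.033 turned, with 0 genes called), −0.0073, −0.0027 and −0.0078. Among all genes 4.09% were called lower in AT22 over S288C, and 3.11%, 3.08% and 3.38% were called higher in the 3 comparisons with TAT12, and counts of 1 or 2 among 14 are no result about the list. HSP78, the matrix disaggregase that works with Ssc1, was the gene called in all 3 comparisons with TAT12, which share that strain. Its log2 ratios were 0.57 on the first array and 0.97 on the second (mean 0.77, z-score 2.38) relative to S288C, 0.72 and 0.64 (mean 0.68, z-score 4.03) relative to TTY23 and 0.32 and 0.24 (mean 0.28, z-score 2.02) relative to AT22. Both arrays were above 0 in each of these swaps, unlike those of any of the 9 genes. All HSP78 readings of the swaps with S288C and TTY23 were above background, and not all of those with AT22 were. AT22 over S288C had 0.34 and −0.014 (mean 0.16, z-score 0.826) for HSP78 (0.18 turned), and the indirect TTY23 over S288C was 0.093.

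CPR3, the matrix cyclophilin that speeds protein folding, was called higher in TAT12 over AT22 with 0.28 and 0.24 (mean 0.26, z-score 2.15), and was not above background in every reading. MCX1, a matrix relative of the bacterial unfoldase ClpX, was called lower in AT22 over S288C with −0.69 and −0.49 (mean −0.59, z-score −2.22), a call that ended with the second array turned (mean −0.10, z-score −0.0727). In TAT12 MCX1 was below 0 on both arrays relative to S288C, at −0.94 and −0.14 (mean −0.54, z-score −1.11), and relative to TTY23, at −0.52 and −0.41 (mean −0.47, z-score −1.31), without a call.

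Of 12 iron-sulfur cluster assembly genes, 0 were called in AT22 over S288C, 1 higher and 1 lower in TAT12 over S288C, 1 higher in TAT12 over TTY23 and 0 in TAT12 over AT22. Set against 12 genes and the shares of all genes called (4.62%, 5.05%, 5.51% and 4.28%), these counts are no result about the list. The list medians were 0.13 (0.078 turned, with 1 gene, NFU1, called lower), 0.094, −0.033 and −0.0059. YFH1, the yeast frataxin, was the gene called higher, with 0.68 and 0.27 (mean 0.47, z-score 2.19) relative to S288C and 0.51 and 0.074 (mean 0.29, z-score 2.99) relative to TTY23. NFU1, an iron-sulfur carrier, was called lower in TAT12 over S288C with −0.75 and −0.077 (mean −0.41, z-score −2.15). Each fell short of the background mark in at least 1 reading of the swap in which it was called.

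Of 9 genes of the import motor and presequence processing, 2 were called lower in AT22 over S288C, where 4.09% of all genes were, and 0 in the 3 direct comparisons with TAT12, with medians of −0.27, −0.0022, −0.069 and −0.11. PAM16, a J-like subunit of the import motor, had −0.56 and −0.36 (mean −0.46, z-score −2.01), and ICP55, a peptidase that trims imported proteins, −0.54 and −0.49 (mean −0.52, z-score −2.04). With the second array turned their means were −0.10 and −0.025, the list median was 0.10 and 0 of the 9 genes were called. Neither gene was above background in every reading. In TTY23 over S288C, read indirectly, 1 gene of this list was called higher, beside 3% of all genes: MDJ2, a J-protein of the inner membrane named after its values were seen, at 0.54 and 0.63 (mean 0.59, z-score 2.72), and not above background in every reading.

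**Figure D5:**
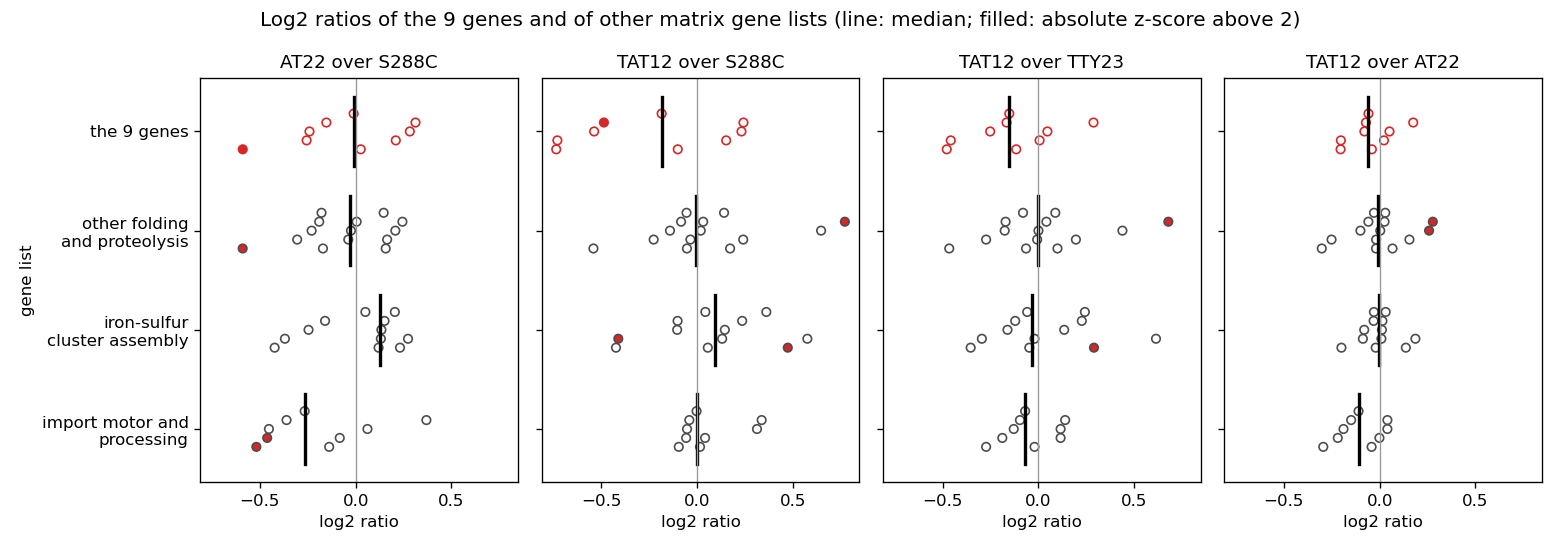
Log2 ratios of the 9 genes and of 3 lists of other mitochondrial genes in the 4 dye-swap comparisons, with list medians as black lines and genes past an absolute z-score of 2 filled. HSP78 is the rightmost filled point of the folding and proteolysis list in the 3 comparisons with TAT12, at 0.77, 0.68 and 0.28.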

How the data were processed

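Array intensities from 8 arrays (4 dye swaps, 2 arrays each) were analysed, with strains and dyes taken from the labels. For each spot and dye the authors deposited an intensity and a local background as scanned, not normalized, and 1 score per gene and swap, an intensity-dependent z-score computed with genArise. The series table repeats these scores. Their direction is not stated and was read from their correlation with the scanner z-scores (r = 0.777 to 0.93), and the medians of the table were 0.11, 0.0052, −0.029 and −0.10. No genome build is named in them, and coordinates were left out.

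Background was corrected with normexp (limma 3.58.1 in R 4.3.3, offset 50) and log2 ratios were normalized by loess within each array, with control and empty spots given no weight. Spots of a gene were averaged, the second array was turned, and both arrays were averaged. The z-score used the 100 genes nearest in mean intensity. The limma fit (lmFit, eBayes, Benjamini-Hochberg adjustment) used the 4 swap means and 3 coefficients. The limma fit was also run on simulated data with independent normal noise. That setting is simpler than these arrays, so it does not show what the fit could detect here. Python 3.11.15, numpy 2.4.6, pandas 2.3.3 and matplotlib 3.10.9 did the rest. The number of arrays limits the precision.

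The named genes were the 9 genes and, from the 3 lists (35 genes), those past an absolute z-score of 2 in a direct comparison. MDJ2 falls outside this rule and was named after its values were seen. The genes and lists were chosen with earlier results of these data known. Alternatives covered background correction, normalization, dim genes, each array alone, the neighbours, the threshold, the authors' z-scores, least squares over the loop and the turned second array of AT22 and S288C. Sequences were not used here.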

Additional observations from a re-analysis of the deposited data

Results flagged for a closer look

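HSP60 was above 0 on both arrays of AT22 over S288C and below 0 on both arrays of TAT12 over S288C, and the 2 effects differed by 1.01 on the log2 scale. HSP10 showed the same pattern, with a difference of 0.85. These differences were not tested. Both comparisons share S288C as the denominator. With the second AT22/S288C array turned, the means of AT22 over S288C were −0.063 for HSP60 and −0.027 for HSP10, and both arrays no longer lay on one side of 0. TAT12 over AT22 measures the same differences with the sign reversed. Measured directly it was −0.041 for HSP60 and −0.072 for HSP10, so that swap did not show differences of this size. With median centring AT22 over S288C was 0.089 for HSP60 and 0.17 for HSP10. Least squares over the loop gave −0.041 and 0.053.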

How the results depend on the processing

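The number of the 9 genes called changed with several settings. In AT22 over S288C it was 1, and 0 without background correction and on the second array alone. It was also 0 with dim genes left out and in the authors' z-scores, where PIM1 was not counted or had no score. In TAT12 over S288C it was 1 (JAC1), a different gene on the second array alone (1, PIM1, higher, z-score 2.69), and 0 without background correction, with median centring, with 400 neighbours, with least squares over the loop, in the authors' z-scores and with dim genes left out, which removes JAC1. In TAT12 over TTY23 and TAT12 over AT22 it was 0, and 1 (PIM1) on the first array alone and 1 (PIM1, with the opposite sign) on the second alone. TAT12 over AT22 had 2 (JAC1 and PIM1) with least squares over the loop. The indirect TTY23 over S288C had 0, and 1 on the first arrays alone (JAC1) and 1 with least squares over the loop (MDJ1). The shares of all genes called under these alternatives are not given here, so these counts are no result about the 9 genes. At an absolute z-score above 1, the counts were 3, 5, 2, 2 and 2 in the order AT22 over S288C, TAT12 over S288C, TAT12 over TTY23, TAT12 over AT22 and TTY23 over S288C, beside 29.2%, 30.8%, 29%, 30.1% and 30.2% of all genes. On the first array alone the median log2 ratio of the 9 genes moved by more than the SD of the 2 array medians. It went to 0.10 in AT22 over S288C, −0.37 in TAT12 over S288C, −0.27 in TAT12 over TTY23 and −0.11 in TAT12 over AT22. In TAT12 over S288C it also moved, to −0.54, with dim genes left out, where 5 genes remained. Each array enters that SD, so moves judged against it say little about stability. The cause was not tested, except that the dim filter leaves fewer genes. The other 25 of 30 medians moved less, but the spread of the indirect one was wide: from −0.069 it went to 0.020 without background correction, −0.31 with median centring, −0.27 with dim genes left out, −0.018 with least squares over the loop, −0.45 on the first arrays and 0.094 on the second. Of the 9 genes, 1 kept its direction under all alternatives in AT22 over S288C, 7 in TAT12 over S288C, 5 in TAT12 over TTY23, 3 in TAT12 over AT22 and 3 in the indirect comparison. The gene in AT22 over S288C was PIM1, and the 7 included SSC1, both mostly at the level of the empty spots. These counts are not on one scale. A gene had 6 or 7 alternatives in AT22 over S288C, 4 or 5 in TAT12 over TTY23 and 5 or 6 in the others. The alternatives include each array alone, so only a gene with the same sign on both arrays could keep its direction. Both arrays had the same sign for 52.9% of all genes in AT22 over S288C and 50.2% in TAT12 over S288C. The shares were 50% in TAT12 over TTY23 and 42.1% in TAT12 over AT22. The limma test called 0 of the 9 genes also with the second AT22/S288C array turned and on 8 arrays with a dye term, with lowest adjusted p of 0.103 and 0.453. The fit on 8 arrays takes both arrays of a swap as separate, so its p covers technical spread only. It had 424, 570, 359 and 207 genes, and 1 (ECM10), 1 (ECM10), 0 and 0 of the 9, at an unadjusted p under 0.05. No paired analysis was possible because each comparison has 1 dye swap. Dim signal limits SSC1 and PIM1 most.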
